A study of Mus musculus with 42 samples.

Results

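Hepatic transcriptomes of obese ChemR23 knockout (KO) mice given resolvin E1 (RvE1) were set against those of obese wild type (WT) mice given the same compound, a pair of groups that the deposited tables keep apart. The members were the 14 libraries whose labels give a high fat diet and RvE1, 7 from KO obese+RvE1 mice and 7 from WT obese+RvE1 mice, out of 42 liver libraries in the series. All were male mice on a C57BL/6J background, with a ChemR23 allele disrupted by CRISPR/Cas9 in the KO and WT littermates as controls, so the receptor was lost from every cell type and not from hepatocytes alone. Both groups ate a diet with 60% of energy from fat for 15 weeks from 6 weeks of age, received 300 ng RvE1 by intraperitoneal injection on 4 days, and were killed on day 5 after a fast of at least 4 hours. The same genotype comparison in vehicle-treated mice (7 KO obese and 7 WT obese, given ethanol in PBS) served as the background, and the 4 groups together gave a test of whether the genotype difference itself differed with RvE1.

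RvE1 is a specialized pro-resolving lipid mediator made from eicosapentaenoic acid, an omega-3 fatty acid. ChemR23, encoded by Cmklr1, is a cell surface receptor coupled to G proteins. RvE1 is one of its ligands and chemerin (Rarres2), a protein secreted by liver and fat, is another. RvE1 also acts on the leukotriene B4 receptor (Ltb4r1). In the liver the receptor is best known from macrophages and other non-parenchymal cells. Whole liver RNA is dominated by hepatocytes, and in such bulk samples fewer cells of a type and less RNA per cell cannot be told apart.

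Recovered reads on the 13061 genes listed in both tables ran from 19311464 to 35833987 per library in WT obese+RvE1 mice (median 31059401) and from 16927250 to 36240345 in KO obese+RvE1 mice (median 22950631). All 14 hepatocyte markers were tested, and their summed level lay between 2060550 and 2955420 normalized counts in WT mice and between 1859885 and 2377350 in KO mice. Of these markers 13 had a log2 fold change (log2FC, KO minus WT) below 0, with a median of -0.19. At an unadjusted p under 0.05 in limma there were 0 of 14. Each mouse identifier opens with a number whose meaning the labels do not give. WT obese+RvE1 mice carried number 30 (3 mice) or 7 (4 mice), and KO obese+RvE1 mice 12 (3 mice), 15 (2 mice) or 23 (2 mice), so that number and genotype cannot be told apart except within WT or within KO. On the first principal component, which held 33.7% of the variance, KO mice 12-2L and 23RL stood apart from the other 12 mice at 54.0 and 52.7, against -33.0 to 15.1 for the rest. The WT mice fell by number on the same component, at -33.0 to -18.6 for number 30 and 10.4 to 15.1 for number 7. KO mouse 23-2L had 906 normalized counts over 3 tested neutrophil markers of 12 listed, against 38.8 to 177 in the other 13 mice. Of that list, 9 markers that define neutrophils, Ly6g among them, were not analysed here.

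The targeted gene separated the genotypes completely. Cmklr1 lies on chromosome 5 at 113612354 to 113650426 on the minus strand (GRCm38). In WT obese+RvE1 livers it ran from 47.9 normalized counts through a median of 67.8 to 156, and in KO obese+RvE1 livers from 7.18 through 13.2 to 17.5. The highest KO mouse was thus below the lowest WT mouse. Mean levels were 84.2 ± 38.7 in WT and 13.4 ± 3.59 in KO (SD, n = 7 each), a log2FC of -2.50 (95% CI -3.05 to -1.95, limma adjusted p = 0.000677). The KO libraries still held 5 to 25 Cmklr1 reads each, against 49 to 244 in WT. Among WT mice the level also varied by number, with 47.9 to 67.8 in mice numbered 30 and 62.5 to 156 in those numbered 7. On a common scale over all 6 groups, the KO means were 13.8 ± 5.05 in lean, 14.8 ± 6.09 in obese and 12.2 ± 3.26 in obese+RvE1 mice, beside 69.3 ± 27.1, 63.2 ± 24.9 and 76.7 ± 34.9 in WT (SD, n = 7 each).

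**Figure D1:**
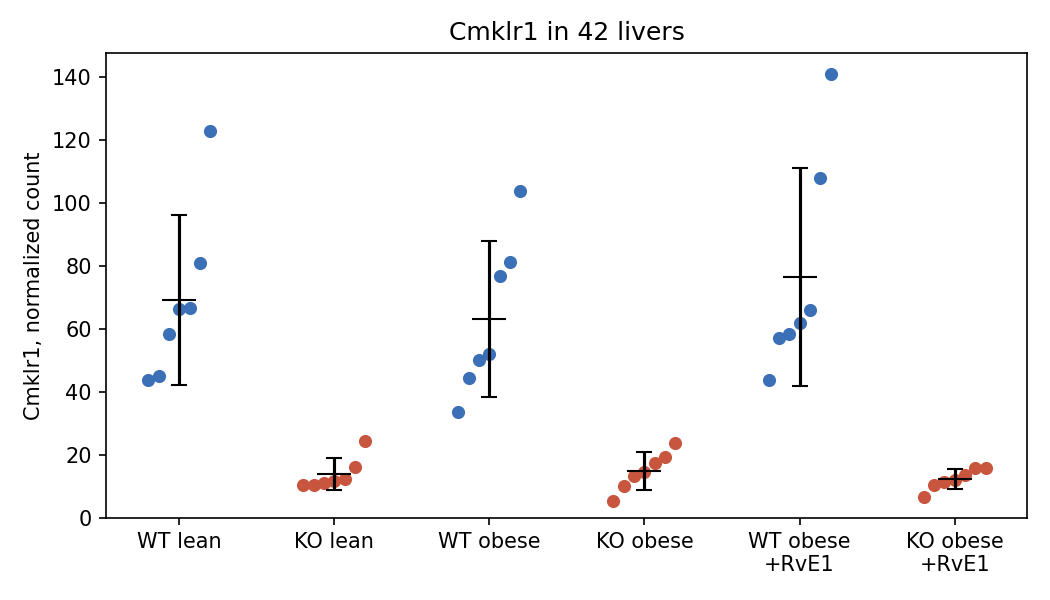
Cmklr1 normalized counts (linear axis from 0, scaled over 42 libraries) by group, with 1 point per mouse and the group mean ± SD in black. KO obese+RvE1 mice sit between 6.57 and 15.9, below WT obese+RvE1 mice at 43.8 to 141, and the same gap separates KO from WT mice in the lean and obese groups.

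The ligand and receptor genes around ChemR23 gave no call. Chemerin (Rarres2) had 4449 ± 1233 normalized counts in WT and 3765 ± 637 in KO mice (SD, n = 7 each; log2FC -0.21, 95% CI -0.56 to 0.14). Its WT values split by number, at 5619 to 6002 in the mice numbered 30 and 3356 to 3565 in those numbered 7, and the KO mice at 3052 to 4901 covered the lower of these ranges. The leukotriene B4 receptor Ltb4r1 stood at 27.0 ± 8.46 in WT and 25.3 ± 6.18 in KO (log2FC -0.06, 95% CI -0.56 to 0.43), and the chemerin-binding decoy receptor Ccrl2 had a log2FC of 0.20 (adjusted p = 0.999). Wscd2, at 113490333 to 113589725 on the plus strand of chromosome 5, ends 22.6 kb from Cmklr1. It held 5.41 to 25.4 normalized counts in the 7 KO obese+RvE1 mice (mean 19.4 ± 6.85, SD), and its level in WT obese+RvE1 mice was not analysed here, so no test could be made. The other 19 tested genes that start within 1 Mb of Cmklr1 had log2FC values between -1.08 (Tmem119) and 0.43 (Sgsm1), and none was called.

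Among the genes listed for both genotypes, Cmklr1 was the only one that passed both limits, a fold change over 1.5 and an adjusted p below 0.1. It was 1 of 13059 tested, or 0.00766%. edgeR gave the same single gene, and DESeq2 gave 3, Cmklr1 with Trib3 and Scai. Another 1378 genes, Wscd2 among them, were listed for KO mice only and were not tested. A gene low in WT and raised in KO could be missing for that reason. An unadjusted p under 0.05 was reached by 201 genes higher in KO (1.54% of those tested) and 248 lower (1.90%). The KO values lay above all WT values in 3 genes (0.0230%), Trib3, Scai and LOC106740, and below all WT values in 3 others (0.0230%), Cmklr1, Mboat7 and Supt4a. Mboat7 (log2FC -0.26) and Supt4a (log2FC -0.36) were picked out here after their values had been seen. The 95% interval of the log2FC had a median half-width of 0.35. It stayed within a 1.5-fold change in either direction for 8623 genes (66.0%) and within a 2-fold change for 12021 (92.1%).

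**Figure D2:**
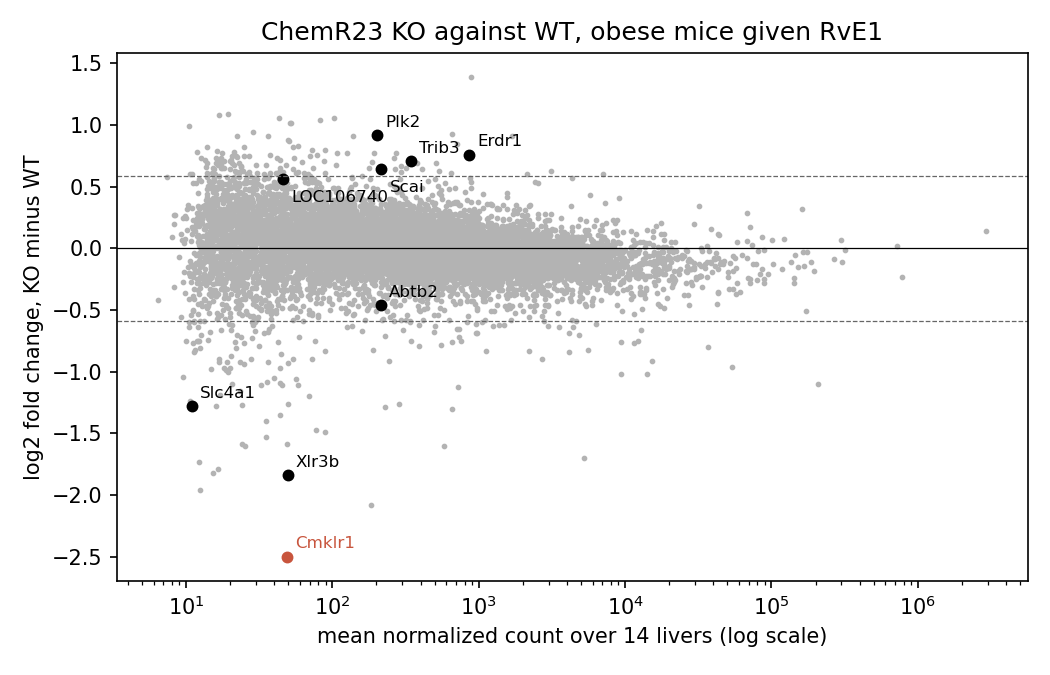
Log2FC (KO minus WT) of 13059 genes against their mean normalized count over the 14 livers of obese mice given RvE1 (log axis), with dashed lines at a 1.5-fold change. The genes followed in the text from each direction are named, and Cmklr1 at -2.50 is the lowest point and the one called gene.

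The gene nearest to a call on the higher side was tribbles pseudokinase 3 (Trib3), a stress-induced inhibitor of Akt and a target of the integrated stress response. It ran from 223 through 254 to 320 normalized counts in WT and from 320 through 475 to 494 in KO mice, the lowest KO value lying just above the highest WT value. Its log2FC was 0.71 (95% CI 0.44 to 0.98) with an adjusted p of 0.305 in limma, so it was not called. DESeq2 called it at an adjusted p of 0.00117. In vehicle-treated mice the Trib3 log2FC was -0.04 (95% CI -0.89 to 0.81), and the difference between these was 0.76 (95% CI -0.15 to 1.66), which did not pass the interaction test (adjusted p = 1.00).

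Scai, a repressor of MRTF-dependent transcription, came next. It ran from 114 through 177 to 220 normalized counts in WT and from 227 through 264 to 297 in KO livers (log2FC 0.64, 95% CI 0.36 to 0.92, limma adjusted p = 0.786), again with no overlap. DESeq2 called it as well, at an adjusted p of 0.0398. Within WT, all 3 mice numbered 30 (114 to 152) were lower than the 4 numbered 7 (177 to 220). The unnamed locus LOC106740 had 28.3 to 43.9 in WT and 44.7 to 65.7 in KO (log2FC 0.56, 95% CI 0.26 to 0.87), and had no match in the annotation used.

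Polo-like kinase 2 (Plk2), a p53 target and immediate early gene, ran from 80.4 through 134 to 235 in WT and from 214 through 224 to 361 in KO mice (log2FC 0.92, 95% CI 0.38 to 1.45). The groups overlapped, with 2 WT mice numbered 7 above the lowest KO mouse, while the 3 WT mice numbered 30 stood at 80.4 to 90.6. Erdr1 (erythroid differentiation regulator 1) ran from 343 through 674 to 786 in WT and from 603 through 1146 to 1511 in KO mice (log2FC 0.76, 95% CI 0.34 to 1.19). It also had no match in the annotation used. Neither gene was called (adjusted p = 0.999 for both).

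On the lower side, Abtb2, Xlr3b and Slc4a1 came next after Cmklr1, none of them called (adjusted p = 0.999 for each). Abtb2, which encodes an ankyrin repeat and BTB domain protein, ran from 194 through 238 to 306 in WT and from 153 through 178 to 219 in KO mice (log2FC -0.46, 95% CI -0.71 to -0.20). The X-linked gene Xlr3b ran from 36.2 through 67.8 to 110 in WT and from 4.31 through 13.2 to 129 in KO mice (log2FC -1.84, 95% CI -2.93 to -0.75). Of the KO mice 6 were at or below 31.3, and mouse 15-2L alone was at 129. Without that mouse Xlr3b was called at a log2FC of -2.31. Its reads may be shared with near-identical neighbouring copies of the Xlr3 family.

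Slc4a1, the band 3 anion exchanger of red cells, ran from 6.20 through 14.7 to 23.7 in WT and from 3.13 through 4.56 to 13.2 in KO mice (log2FC -1.28, 95% CI -2.04 to -0.53). The vehicle-treated mice had a value on the same side for Slc4a1, at -1.06. Of 10 erythroid markers 3 were tested (Slc4a1, Alas2 and Bpgm), and their summed level was 2252 to 3105 in WT and 1648 to 3160 in KO mice. The globin genes were not analysed here, and the part of red cell RNA in these values was not tested.

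**Figure D3:**
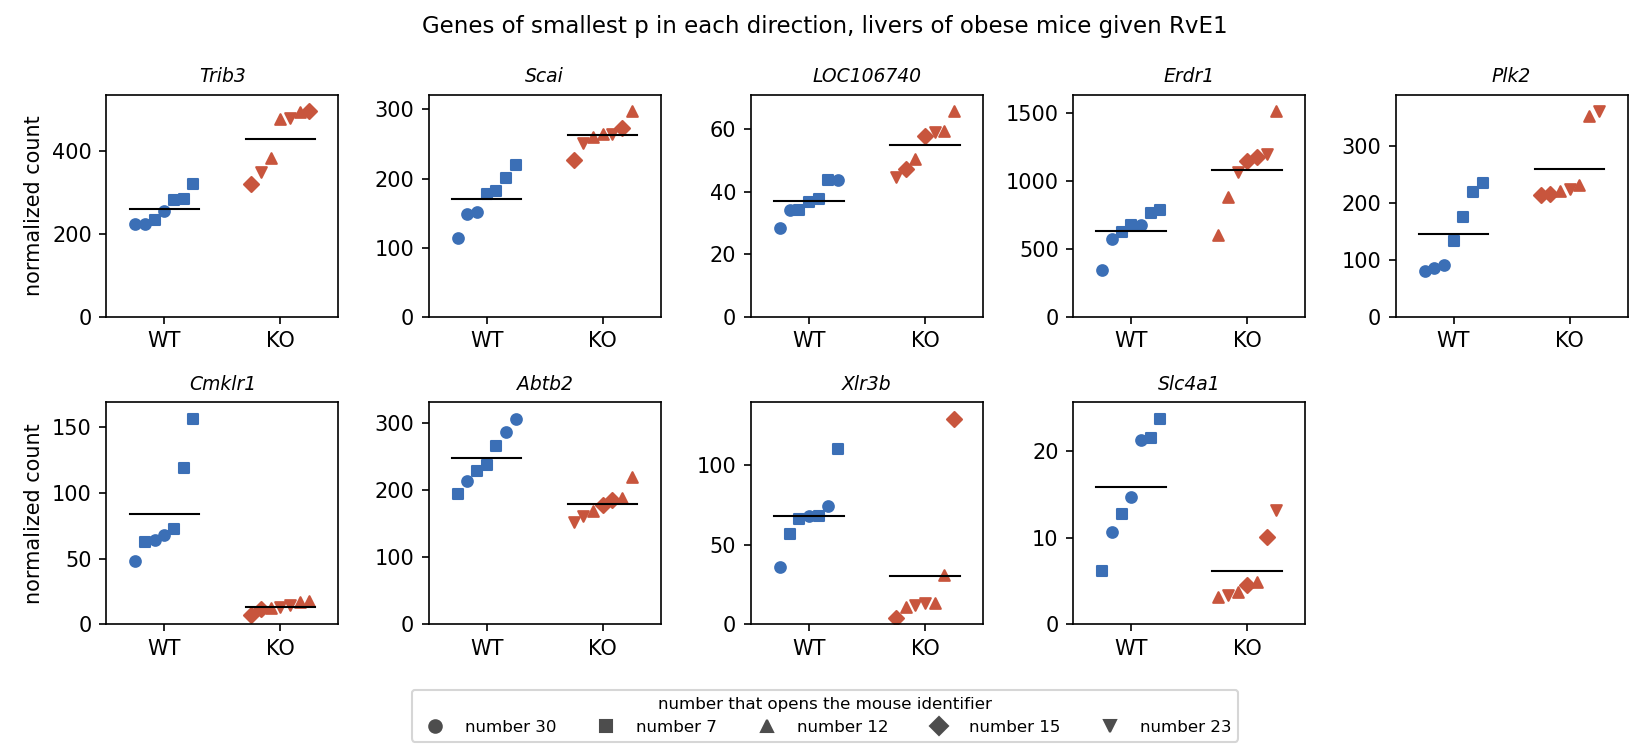
Normalized counts (linear axes from 0) of genes with the smallest p, 5 higher in KO (top row) and 4 lower in KO (bottom row), with 1 point per mouse, the mean as a black line and the marker shape giving the number that opens the mouse identifier. WT and KO mice do not overlap in Cmklr1, Trib3, Scai and LOC106740, and 1 KO mouse at 129 stands above the other KO mice in Xlr3b.

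Gene lists were then read for direction. They held 995 genes in 38 lists, of which 848 were tested, and Cmklr1 was the one member called in limma, with Trib3 the second in DESeq2. Over all genes the median log2FC was -0.0138. De novo lipogenesis had 20 of 22 tested members below 0 and a median of -0.30. Its largest differences were in stearoyl-CoA desaturase 1 (Scd1, log2FC -1.10, 95% CI -2.55 to 0.34), lipin 1 (Lpin1, -1.02) and Thrsp (-1.02), a regulator of lipogenic transcription, and 0 of 22 members reached an unadjusted p under 0.05. Without the KO mice numbered 23, 11 of 22 were lower at that p with a median of -0.64, beside 599 of all genes (4.59%), and without 12-2L and 23RL 6 of 22 with a median of -0.64, beside 879 of all genes (6.73%). Scd1 varied widely within KO, from 7137 in mouse 12L to 267169 in mouse 23-2L. The KO mice numbered 23 held the highest KO values of Scd1 (240358 to 267169, against at most 195188 in the others). Leaving them out therefore lowers the KO side of that gene through the choice of mice. Mice 12-2L and 23RL were picked after the data had been seen. Among cholesterol synthesis and uptake genes 25 of 26 were below 0 (median -0.20), and among desaturases and elongases 14 of 17 (median -0.27). With vehicle the median was -0.24 for the cholesterol list, 0.04 for de novo lipogenesis and 0.02 for desaturases and elongases.

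In glucose and glycogen metabolism 22 of 29 members were below 0 (median -0.14). Beside 1.90% of all genes, 3 of the 29 were lower in KO at an unadjusted p under 0.05. Among these were Ppp1r3b, which targets protein phosphatase 1 to glycogen, and the forkhead factor Foxq1. Ppp1r3b had 14077 ± 2399 normalized counts in WT and 8957 ± 4336 in KO (SD, n = 7 each; log2FC -0.77, 95% CI -1.27 to -0.26). Foxq1 had 889 ± 343 in WT and 567 ± 198 in KO (log2FC -0.65, 95% CI -1.18 to -0.11). In vehicle-treated mice the log2FC was 0.03 for Ppp1r3b and -0.12 for Foxq1, and neither interaction passed (adjusted p = 1.00 for both). Foxq1 was named because the study reports it as lower with RvE1 in these same KO mice. Its genotype difference and interaction are therefore not independent of that choice.

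The respiratory chain list had 71 of 74 members below 0 with a median of -0.18. At an unadjusted p under 0.05, 9 of the 74 were lower in KO, beside 248 of all genes (1.90%). Complex I subunits Ndufb3 (log2FC -0.36) and Ndufb5 (-0.32) had the smallest p, and the complex III subunit Uqcrb the lowest value (-0.75). Cytosolic ribosomal proteins had 61 of 75 below 0 (median -0.13). Without KO mice 12-2L and 23RL these medians moved to 0.01 for the respiratory chain and 0.05 for the ribosomal proteins. Without the 3 WT mice numbered 30 they moved to -0.01 and -0.04. KO mice 12-2L and 23RL were picked after the data had been seen.

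Interferon-stimulated genes lay on the other side, with 41 of 46 tested members above 0 and a median of 0.19 (0.11 with vehicle). The helicase Ddx60 had the smallest p among them, at 147 ± 68.3 normalized counts in WT and 210 ± 30.2 in KO (SD, n = 7 each; log2FC 0.65, 95% CI 0.08 to 1.23), followed by the interferon regulatory factor Irf7 (log2FC 0.38) and the antiviral GTPase Mx1 (0.60). None of the 3 was called (adjusted p = 0.999 in limma). Immediate early genes had 17 of 24 members above 0 (median 0.19), but without the KO mice numbered 23 the median was -0.07.

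The values of several lists depended on which WT mice were used. Against the 3 WT mice numbered 30 alone, 113 genes were called (0.865% of those tested), 71 higher and 42 lower in KO. In that comparison 1111 genes (8.51%) were higher in KO at an unadjusted p under 0.05, among them 23 of 46 interferon-stimulated genes, whose median was 0.49. Against the 4 WT mice numbered 7 alone, 1 gene was called, Cmklr1, and the median of the same list was -0.02. Trib3 and Scai were among the genes called against number 30. Ddx60 shows the split, with 69.4 to 86.3 in WT mice numbered 30, 169 to 221 in those numbered 7 and 146 to 233 in the KO mice. The BMP-regulated hepcidin gene Hamp2, whose reads may be shared with Hamp, had 1433 to 2159 in WT mice numbered 30, 49.6 to 318 in those numbered 7 and 60.5 to 467 in KO mice. Kynureninase (Kynu) of the NAD synthesis route had 3969 to 5239, 2261 to 2700 and 2154 to 2650 in the same order. For de novo lipogenesis the medians were -0.63 against number 30 and -0.03 against number 7, for cholesterol synthesis -0.53 and 0.03, for glucose and glycogen metabolism -0.43 and 0.02, and for the respiratory chain -0.42 and -0.01.

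**Figure D4:**
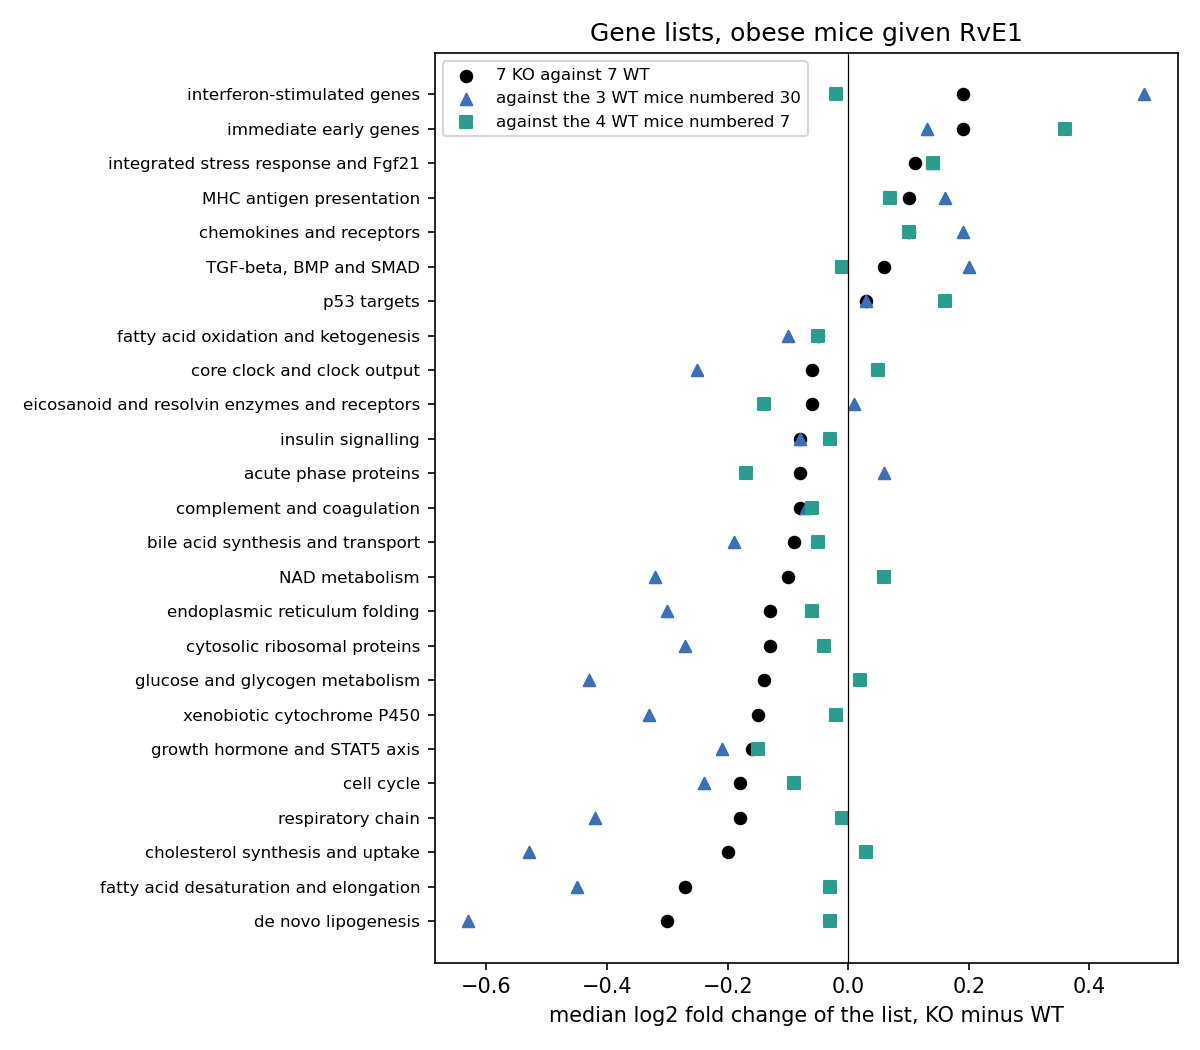
Median log2FC (KO minus WT) of 25 gene lists with all 7 WT mice (circles), with the 3 WT mice numbered 30 only (triangles) and with the 4 numbered 7 only (squares), against the same 7 KO mice. Lipid, glucose and respiratory lists sit farther below 0 and interferon-stimulated genes farther above it with number 30, while with number 7 the medians lie between -0.17 and 0.36.

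Eicosanoid and resolvin enzymes and receptors had 14 of 24 tested members below 0 (median -0.06). At an unadjusted p under 0.05, 2 of the 24 were lower in KO, beside 1.90% of all genes. Alox15, the 12/15-lipoxygenase that makes pro-resolving mediators in macrophages, ran from 3.84 to 40.5 in the WT mice numbered 7, 10.7 to 14.7 in those numbered 30 and 0 to 8.39 in KO mice (log2FC -1.73, 95% CI -2.86 to -0.60, adjusted p = 0.999). With vehicle its value was on the same side (log2FC -1.13, 95% CI -2.41 to 0.16), at means of 14.1 in WT and 5.14 in KO. The prostaglandin E2 receptor Ptger2 had 52.5 ± 9.08 in WT and 41.3 ± 4.62 in KO mice (SD, n = 7 each; log2FC -0.33, 95% CI -0.64 to -0.02). The 5-lipoxygenase activating protein Alox5ap (log2FC -0.28, 95% CI -0.84 to 0.28) and leukotriene A4 hydrolase Lta4h (log2FC -0.11, 95% CI -0.34 to 0.12) had intervals that included 0. Alox5 was not analysed here.

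The clock repressor Bhlhe41 had 93.5 ± 30.0 in WT and 181 ± 90.8 in KO mice (SD, n = 7 each; log2FC 0.91, 95% CI 0.30 to 1.52), in a clock list with a median of -0.06. Igfbp5, an insulin-like growth factor binding protein that was in none of the lists, had 973 ± 480 in WT and 465 ± 283 in KO (log2FC -1.12, 95% CI -1.85 to -0.40), with a value on the same side in vehicle-treated mice (log2FC -1.22, 95% CI -1.76 to -0.68). The NAD-related gene Nmrk1 (log2FC -0.09, 95% CI -0.39 to 0.22), Ces3b, a carboxylesterase (-0.22, 95% CI -0.79 to 0.35), and Myc (-0.18, 95% CI -0.88 to 0.52) had intervals that included 0. Fgf21, a fasting and stress hepatokine, had a log2FC of -0.17 with RvE1 (95% CI -0.83 to 0.49) and 0.73 with vehicle (95% CI 0.21 to 1.25, adjusted p = 1.00), an interaction of -0.89 (95% CI -1.75 to -0.04) that did not pass (adjusted p = 1.00). Fndc1, which encodes a fibronectin type III domain protein, ran from 4.88 through 18.6 to 46.4 in WT and from 0 through 4.75 to 9.38 in KO mice with RvE1 (log2FC -1.96, 95% CI -3.33 to -0.59, adjusted p = 0.999). Its interaction was -2.03 (95% CI -3.58 to -0.48, adjusted p = 1.00), with vehicle means of 3.65 in WT and 4.00 in KO, below the limit for a test there. With RvE1, Fndc1 passed that limit, a mean of at least 5, through its WT mice, as the KO mean was 4.88. Fndc1 and Fgf21 were named because the study reports both as higher with RvE1 in these same WT mice. Their genotype differences and interactions are therefore not independent of that choice.

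Markers of non-hepatocyte cells gave no call. Kupffer cell and macrophage markers had 10 of 19 tested members above 0 with a median of 0.00, and summed to 9501 to 23799 in WT and 9966 to 20774 in KO mice. Sinusoidal endothelial markers had 13 of 15 above 0 (median 0.18, and 0.20 with vehicle). Of the gut and mesothelium list 5 of 9 markers were tested, with a median of -1.05. Its mesothelial members Upk3b (log2FC -1.49), Lrrn4 (-1.05) and Msln (-1.09) were lower in KO at an unadjusted p under 0.05, and Upk3b stood at 56.3 to 254 in WT and 7.18 to 159 in KO mice. With vehicle the list median was -0.80, and Upk3b had a log2FC of -1.38 (95% CI -2.45 to -0.31, adjusted p = 1.00). The summed list with RvE1 was 4145 to 8157 in WT and 2343 to 8815 in KO mice. Most of that sum came from other members of the list, as Upk3b reached at most 254 and Lrrn4 132 in these mice.

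The genotype difference was then compared with and without RvE1. In vehicle-treated mice 1 of 13060 genes was called (0.00766%), again Cmklr1, with a log2FC of -2.04 (95% CI -2.70 to -1.39, limma adjusted p = 0.0755). That call was lost with reads scaled to equal totals and with the identifier number as a block, which each gave 0 genes, while DESeq2 gave 2, Cmklr1 and Igfbp5. The interaction was passed by 0 of 13061 genes (0%) in limma, edgeR and DESeq2 alike. An unadjusted p under 0.05 was reached by 316 of them in limma, 359 in edgeR and 389 in DESeq2. Each count is a smaller share of the 13061 genes than the 0.05 that this limit would pass on average with no interaction. The interval of the interaction was wider, with a median half-width of 0.48. A modest dependence of single genes on RvE1 was therefore not detectable with these mice. For Cmklr1 the interaction was -0.44 (95% CI -1.29 to 0.40).

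The 5 genes with the smallest interaction p were 4933406I18Rik, Disp2, Ndufaf3, Gk2 and Ihh. The unnamed transcript 4933406I18Rik had a log2FC of 0.69 with RvE1 and -0.80 with vehicle, and the 95% CI of the difference was 0.84 to 2.16 (adjusted p = 0.932). Indian hedgehog (Ihh), a morphogen that signals to stellate cells and cholangiocytes, had 0.73 with RvE1 and -1.07 with vehicle, a difference of 1.80 (95% CI 0.72 to 2.89). With RvE1 its WT values were 16.6 to 24.5 in mice numbered 30 and 29.6 to 59.7 in those numbered 7, beside 34.7 to 65.4 in KO mice. The interactions were 0.76 for Disp2, which releases hedgehog ligands, 0.54 for Ndufaf3, a complex I assembly factor, and -0.78 for the glycerol kinase Gk2. None of the 5 passed adjustment (adjusted p = 1.00 for the last 4).

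**Figure D5:**
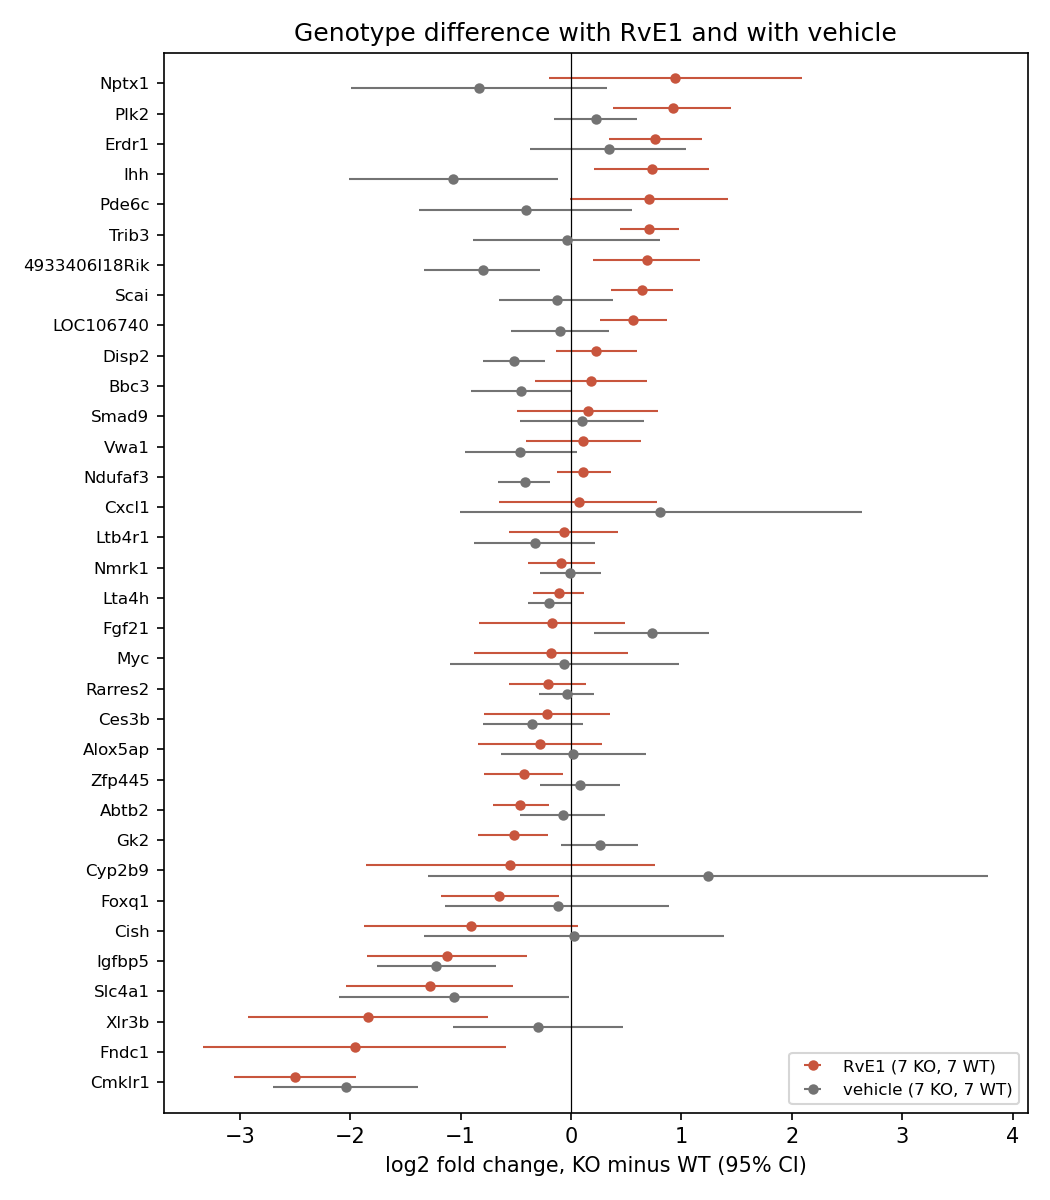
Log2FC (KO minus WT) with its 95% CI in RvE1-treated (red) and vehicle-treated (grey) obese mice for the genes the text follows across both, 7 KO and 7 WT mice each. Cmklr1 lies below 0 in both at -2.50 and -2.04, Igfbp5 and Slc4a1 lie below 0 in both without a call in limma (DESeq2 called Igfbp5 with vehicle), and Ihh and 4933406I18Rik lie on opposite sides. Fndc1 was not tested with vehicle.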

How the data were processed

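Livers were sequenced as paired-end TruSeq stranded libraries (the labels name both total RNA and polyA RNA), aligned to mm10 with Bowtie2, counted with featureCounts and normalized with DESeq2 by the authors, once per table. Tool versions, gene annotation and strand option were not given in the sources used here. Each deposited signal value is a gene's read count over the size factor of its library. Columns with the authors' own log2 fold changes and p-values were not used. Whole reads were recovered by dividing each value by the worth of 1 read. All 809802 values (100%) came out whole within 0.1 reads, and values of a library held in 2 tables differed in 0 of 192437 cases. Genes listed in both tables were joined (13061), 1378 occurred only in the KO table and 4 only in the WT table. The WT table listed no gene with a mean below 11.3 normalized counts, against 4.09 in the KO table, so genes low in WT are missing from the join.

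Reads were scaled by median-of-ratios size factors over the 14 libraries and tested with limma (3.58.1 in R 4.3.3, trended eBayes), two-sided, on log2(normalized count + 1), with a mean of at least 5 and BH adjustment over all genes tested. On this scale, differences of genes with few reads are understated. A call needed a fold change over 1.5 with an adjusted p below 0.1, and the interaction over 28 obese libraries the latter only. edgeR (4.0.16, quasi-likelihood) and DESeq2 (1.42.0, Wald) on recovered reads were alternatives. The code was tested on simulated data. Between 2 libraries of a group the chi-square per gene was at least 23.9 over 84 pairs, so all counted as separate samples. One library came from each mouse.

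Named genes were those the study names, the 5 of smallest p in each direction (fewer than 5 were called), the 2 of smallest p in each list, and the 5 of smallest interaction p. Members, lists and rules were chosen with earlier results of these data known. Coordinates came from GENCODE M21 (GRCm38), matched by symbol for 12285 of 13061 genes (94.1%). No promoter, protein or other sequence is shown. Values of some genes are not reported. The alternatives are described in the closing section.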

Additional observations from a re-analysis of the deposited data

Results flagged for a closer look

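Within each group of 7 mice, the highest or lowest value was compared with its nearest neighbour on the log2 scale for the genes named by the rules and 3 genes of the first principal component, 206 gene and group pairs in all. A value stood apart by Dixon's test at the 95% level in 17 of them, and chance alone flags about 1 in 20. In KO obese+RvE1 mice, mouse 12L was lowest in Scd1 (7137 normalized counts, next 60214) and in the bile salt export pump Abcb11 (4520, next 6798). Mouse 15R was lowest in Alox15 (0, next 3.31), Alox5ap (10.1, next 21.7) and Blk (10.1, next 18.5). Mouse 23-2L was highest in the sterol transporter Abcg8 (3318, next 2409) and in Fabp4 (600, next 243), and lowest in Ddx60 (146, next 207) and Cxcl11 (31.4, next 59.3). Mouse 12RL was lowest in Epcam (3.70, next 15.6) and highest in Krt7 (30.9, next 16.5). In WT obese+RvE1 mice, mouse 30R was lowest in Ccr2 (36.1, next 84.0) and Cxcl10 (53.7, next 82.9). Mouse 30RL was lowest in Cd4 (7.53, next 23.5) and Hsd3b5 (151, next 1055), mouse 30L in Erdr1 (343, next 576) and mouse 7RL in Smad7 (270, next 367).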

How the results depend on the processing

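The single call under RvE1 held in 32 of 37 alternatives for its count, and Cmklr1 stayed called in all 37, at a log2FC of -2.89 to -2.10. With DESeq2 3 genes were called. Leaving out 1 mouse at a time gave 1 to 2 genes, the second being Xlr3b without KO mouse 15-2L, and leaving out both mice numbered 15 gave 2. Leaving out the WT mice numbered 7 gave 113 genes. Leaving out KO mice 12-2L and 23RL, an alternative chosen after seeing the data, gave 1 gene, and leaving out 23-2L as well gave 269. The cause was not tested. With a random block for the identifier number (correlation 0.24) Cmklr1 alone was called, and 182 genes instead of 449 reached an unadjusted p under 0.05. Under vehicle, equal totals and the random block each gave 0 calls, and DESeq2 gave 2, Igfbp5 being the second. The interaction stayed at 0 genes in all 13 alternatives, with 113 to 1210 genes at an unadjusted p under 0.05. As shares of the genes tested, these counts lay on both sides of 0.05. Of 103 named genes, 83 kept their direction under RvE1 in every alternative that gave a value. No paired analysis was possible because the identifier numbers are not shared between genotypes. Low depth limits genes such as Alox15, Slc4a1 and Fndc1.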

Other observations

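KO mice 12-2L and 23RL, which stood apart on the first principal component, had 8.39 and 1.36 normalized counts of the male-biased steroid dehydrogenase Hsd3b5, against 151 to 10377 in the other 12 mice. Hsd3b5 was taken from that component, where it leads the genes at the opposite end. Its low values in these mice are therefore not a separate observation.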
